A study of Mus musculus with 244 samples.

Results

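The 33 genes described here encode the enzymes and transporters of glycolysis and the genes that cells switch on when oxygen is short. They were taken by symbol from a table of 24475 genes, and all 33 were found in it. For description they were split by role into 19 glycolysis genes and 14 hypoxia response genes.

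Glycolysis splits glucose into pyruvate in the cytosol and yields ATP without oxygen; lactate dehydrogenase then turns pyruvate into lactate. Hypoxia-inducible factor 1 is a pair of subunits, of which HIF-1α (Hif1a) is destroyed when prolyl hydroxylases (Egln genes) mark it in the presence of oxygen. When it persists, the factor binds short DNA elements at glucose transporter, glycolysis, angiogenesis and mitophagy genes. Macrophages also raise Hif1a and glycolysis when they are activated, and the depths of atherosclerotic plaque are known to be poor in oxygen.

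The cells were macrophages from the aortic arch of mice, sorted for CD45, CD11b and F4/80 and captured one by one. In the regression group, donors were Apoe-/- mice kept on high-fat diet for 16 weeks, and their arches were transplanted into wild-type (WT) hosts fed chow, from which they were recovered 3 days after surgery. The baseline group came from Apoe-/- donors after the same 16 weeks of diet, without transplantation. Both groups thus share the donors' genotype and diet. They differ at once in surgery, in the Apoe genotype of the animal the cells were taken from and in its later diet, and these cannot be told apart. Cells may also differ in origin, from host or donor, which the sample labels do not give. Because no label ties a cell to an animal, a group is 1 sample here: no test was made, and every SD is a spread over cells.

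A gene is called listed in a cell when its RPKM (reads per kilobase of transcript, scaled to sequencing depth) reaches 1, and levels are log2(RPKM + 1). The 244 libraries held 3 near-identical baseline pairs (correlation 0.992 to 0.997; the next highest was 0.654), each averaged into 1 cell, and 3 regression cells that listed under 1000 genes were dropped. This left 113 regression and 125 baseline cells, with a median of 2360 and 2491 genes listed per cell. Depth could be estimated from the spacing of low values in 52 regression and 68 baseline libraries, with medians of 0.793 M and 1.06 M reads. The regression median is mainly that of sample numbers 168 to 244. Among 1 to 20 only numbers 1, 3, 5 and 17 had an estimate, and among 93 to 111 only 99 and 110. At least 3 of 8 macrophage markers were listed in 113 of 113 regression and 124 of 125 baseline cells, but single markers differed both ways: Itgam by 1.64 and Lyz2 by 1.45 (regression minus baseline, log2 scale), and Adgre1 by -1.19 and Cd68 by -1.05. Apoe averaged 11.86 in regression cells, whose hosts carried the gene, and 0.30 in cells of the Apoe-/- baseline. It was listed in 112 of 113 regression and 9 of 125 baseline cells. Sample numbers run in 5 stretches of 1 condition each: regression 1 to 20, 93 to 111 and 168 to 244 (20, 18 and 75 cells) and baseline 21 to 92 and 112 to 167 (69 and 56 cells). The sources used here do not say what a stretch stands for.

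The sequences below are 100-base stretches before the start of 6 of the members whose mean was higher in regression by at least 1.5 on the log2 scale. Each was picked as the stretch before the start that holds the most matches to the core given next. It is shown only where it belongs to the outermost start of the gene. They are shown because the hypoxia-inducible factor binds the core ACGTG or GCGTG, which is in capitals in either orientation (CACGT and CACGC on the other strand; CACGTG holds both ACGTG and CACGT and counts as 1 match). They are the RefSeq sequences of GRCm38.p6, the build called mm10, read in the direction of the gene.
Hif1a (chr12:73907702-73907801, plus strand, 165 to 66 bases before the start): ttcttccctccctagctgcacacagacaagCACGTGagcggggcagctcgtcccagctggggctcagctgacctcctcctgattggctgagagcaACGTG
Pgk1 (chrX:106186925-106187024, plus strand, 175 to 76 bases before the start): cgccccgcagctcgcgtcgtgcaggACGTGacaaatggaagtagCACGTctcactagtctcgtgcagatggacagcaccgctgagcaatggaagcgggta
Pgam1 (chr19:41911696-41911795, plus strand, 175 to 76 bases before the start): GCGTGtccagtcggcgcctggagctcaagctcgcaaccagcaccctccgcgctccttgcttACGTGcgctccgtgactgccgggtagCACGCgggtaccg
Ldha (chr7:46845675-46845774, plus strand, 129 to 30 bases before the start): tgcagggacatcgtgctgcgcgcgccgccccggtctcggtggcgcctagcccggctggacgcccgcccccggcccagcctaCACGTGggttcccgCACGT
Bnip3 (chr7:138909537-138909636, minus strand, 130 to 31 bases before the start): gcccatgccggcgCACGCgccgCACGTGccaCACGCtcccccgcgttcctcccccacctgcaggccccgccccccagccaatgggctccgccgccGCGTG
Gapdh (chr6:125165813-125165912, minus strand, 139 to 40 bases before the start): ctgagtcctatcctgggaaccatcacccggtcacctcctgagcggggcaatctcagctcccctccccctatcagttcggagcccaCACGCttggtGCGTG

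None of these 6 stretches overlaps an exon of its gene in GENCODE vM21, but those of Hif1a, Ldha and Gapdh lie within the span of longer annotated transcripts. The windows searched are 300 bases long and span a RefSeq start, most of each lying before it, and 31 of the 33 members had at least 1. At least 1 match was found in 34 of the 43 windows of these members (79.1%), against 50.1% of the 21869 windows of all genes in the table and 62.5% of the 9548 windows of genes that passed a 5% filter (listed in 5% or more of either group's cells). By gene, 29 of 31 members held a match (93.5%), against 68.5% of the 7488 such genes that had a window. The 31 include Adm and Ddit4, which did not pass the 5% filter, and the members had more windows per gene. The members were picked for glycolysis and hypoxia roles, where the factor has known targets, so these shares are descriptions only. Tpi1 and Gpi1 had no match in theirs, and the match of Mif lay after the start. Vegfa, higher in regression by 2.65, had 2 matches before an inner start and 0 at its outermost start. No stretch is therefore shown for Tpi1, Mif and Vegfa. A match is a run of letters and was not tested as a binding site.

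Averaged over the whole set, the genes were higher in regression cells. The per-cell mean over all 33 genes was 2.96 ± 1.05 in regression (SD, 113 cells) and 2.03 ± 0.68 at baseline (SD, 125 cells), a difference of 0.93 on the log2 scale. In regression cells it ran from 0.76 through a median of 2.95 to 5.20, and at baseline from 0.41 through 2.07 to 3.78. The ranges overlap widely, although 24 regression cells exceeded every baseline cell and 94 of 113 lay above the baseline median. The median cell listed 15 of the 33 members in regression and 11 at baseline, and the members held 0.681% and 0.350% of summed RPKM.

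Counted gene by gene, 31 of the 33 members passed that 5% filter and are called measured. Adm and Ddit4 were not. Of the 31, 26 had the higher mean in regression, against 47.2% of the 9299 genes that passed the same filter. A difference of at least 1 was seen in 11 of the 31 upward, where 2.43% of all genes had one, and in 0 downward, where 3.17% did. The members' median difference was 0.68, beside -0.02 over all genes. Because the members were chosen with earlier results of these data known, these counts and medians are descriptions only. By role, the hypoxia response genes had a median difference of 0.90 (12 measured) and the glycolysis genes 0.55 (19 measured).

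**Figure D1:**
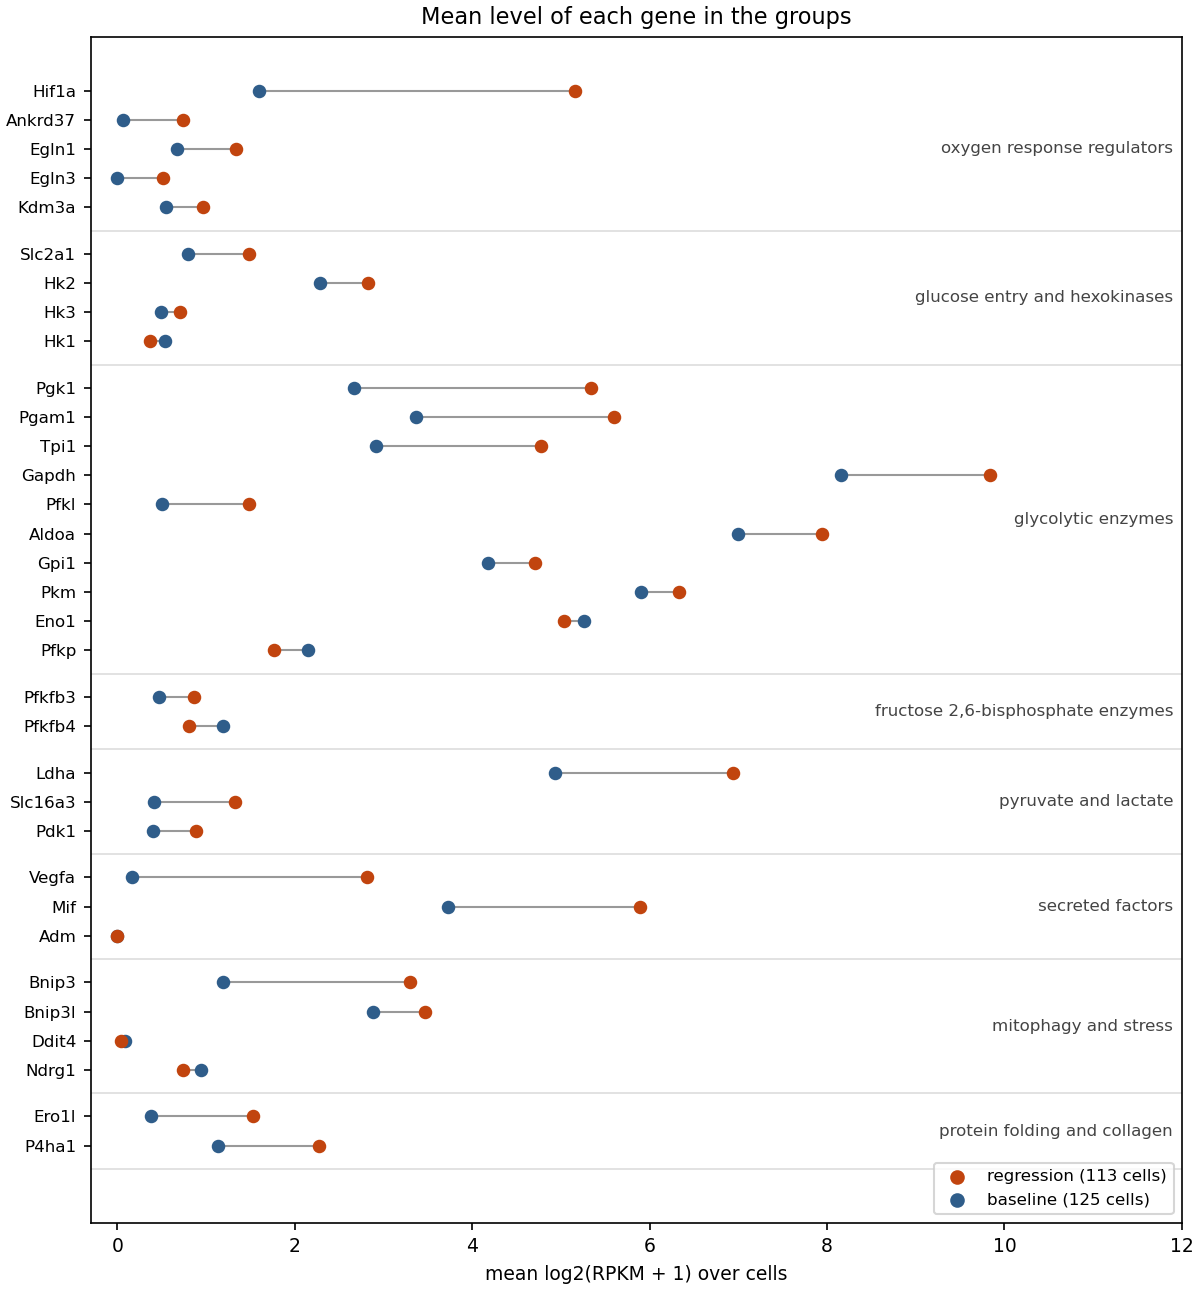
Mean log2(RPKM + 1) of each of the 33 genes over 113 regression cells (orange) and 125 baseline cells (blue), grouped by role and ordered by difference. The widest gap is that of Hif1a, at 5.16 in regression and 1.60 at baseline, while Adm stands at 0 in both groups and its points coincide.

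Hif1a, the oxygen-regulated subunit of the factor, showed the widest difference of the 33. It lies on chromosome 12, 73901375 to 73947530, plus strand (mm10). In regression it averaged 5.16 ± 3.01, with a lowest cell at 0, a median of 5.84 and a highest cell at 9.76. At baseline it averaged 1.60 ± 2.12, with a lowest cell at 0, a median of 0.36 and a highest cell at 8.84. The difference was 3.56, and the top baseline cell was exceeded by 11 regression cells. It was listed in 95 of 113 regression cells (84.1%, exact 95% interval 76.0 to 90.3%) and 57 of 125 baseline cells (45.6%, interval 36.7 to 54.7%). These intervals, like all below, cover counting error only. In the cells that listed it, its mean level was 6.09 in regression and 3.43 at baseline, so both the share of cells and the level within them were higher. The 3 regression stretches stood at 4.73, 5.50 and 5.19, all above the baseline stretches at 1.42 and 1.82.

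Egln1 and Egln3, prolyl hydroxylases that mark HIF-1α for destruction and are themselves known as targets of the factor, differed less. Egln1 averaged 1.34 in regression and 0.67 at baseline, and was listed in 32.7% and 20.0% of cells. Egln3 was listed in 12 of 113 regression cells (10.6%, interval 5.61 to 17.8%) and in 0 of 125 baseline cells. There, 3 cells would make 2.40%, and the exact interval reaches 2.91%. Of those 12 cells, 11 were among numbers 168 to 244 and 1 among 1 to 20. Egln2, another Egln gene but not a member, had the lower mean in regression. It averaged 0.59 ± 1.55 in regression and 1.04 ± 2.07 at baseline, and was listed in 13.3% and 22.4% of cells. Kdm3a, a histone demethylase that needs oxygen, averaged 0.96 ± 1.86 in regression and 0.54 ± 1.52 at baseline. Ankrd37, an ankyrin repeat protein known as a hypoxia target, was listed in 14 regression cells (12.4%, interval 6.94 to 19.9%) and 2 baseline cells (1.60%, interval 0.19 to 5.66%). All of these members were at 0 in the median cell of both groups.

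Among secreted factors, Vegfa and Mif were both higher in regression. Vegfa, the growth factor that drives new vessels (chromosome 17, 46016993 to 46032369, minus strand), ran in regression from 0 through a median of 2.16 to 9.33. At baseline it ran from 0 through a median of 0 to 7.29. Its means were 2.81 ± 2.87 in regression and 0.17 ± 0.90 at baseline, a difference of 2.65. It was listed in 64 regression cells (56.6%, interval 47.0 to 65.9%) and 5 baseline cells (4.00%, interval 1.31 to 9.09%). All 5 baseline cells were among numbers 112 to 167; in 21 to 92 it was listed in 0 of 69. Its shares in the 3 regression stretches were alike, at 60.0%, 50.0% and 57.3%. Mif, a cytokine that also binds chemokine receptors (chromosome 10, 75859353 to 75860240, minus strand), ran in regression from 0 through a median of 7.26 to 12.62. At baseline it ran from 0 through 3.56 to 11.82. It averaged 5.89 ± 3.73 in regression and 3.73 ± 3.76 at baseline, a difference of 2.16, but in cells that listed it the level was 7.31 and 6.85. For Mif the gap was thus mostly one of how many cells listed it, 80.5% against 54.4%. Adm, which encodes the vessel-widening peptide adrenomedullin, was listed in no cell of either group, where 3 cells would make 2.65% of regression and 2.40% of baseline cells and the exact intervals reach 3.21% and 2.91%.

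**Figure D2:**
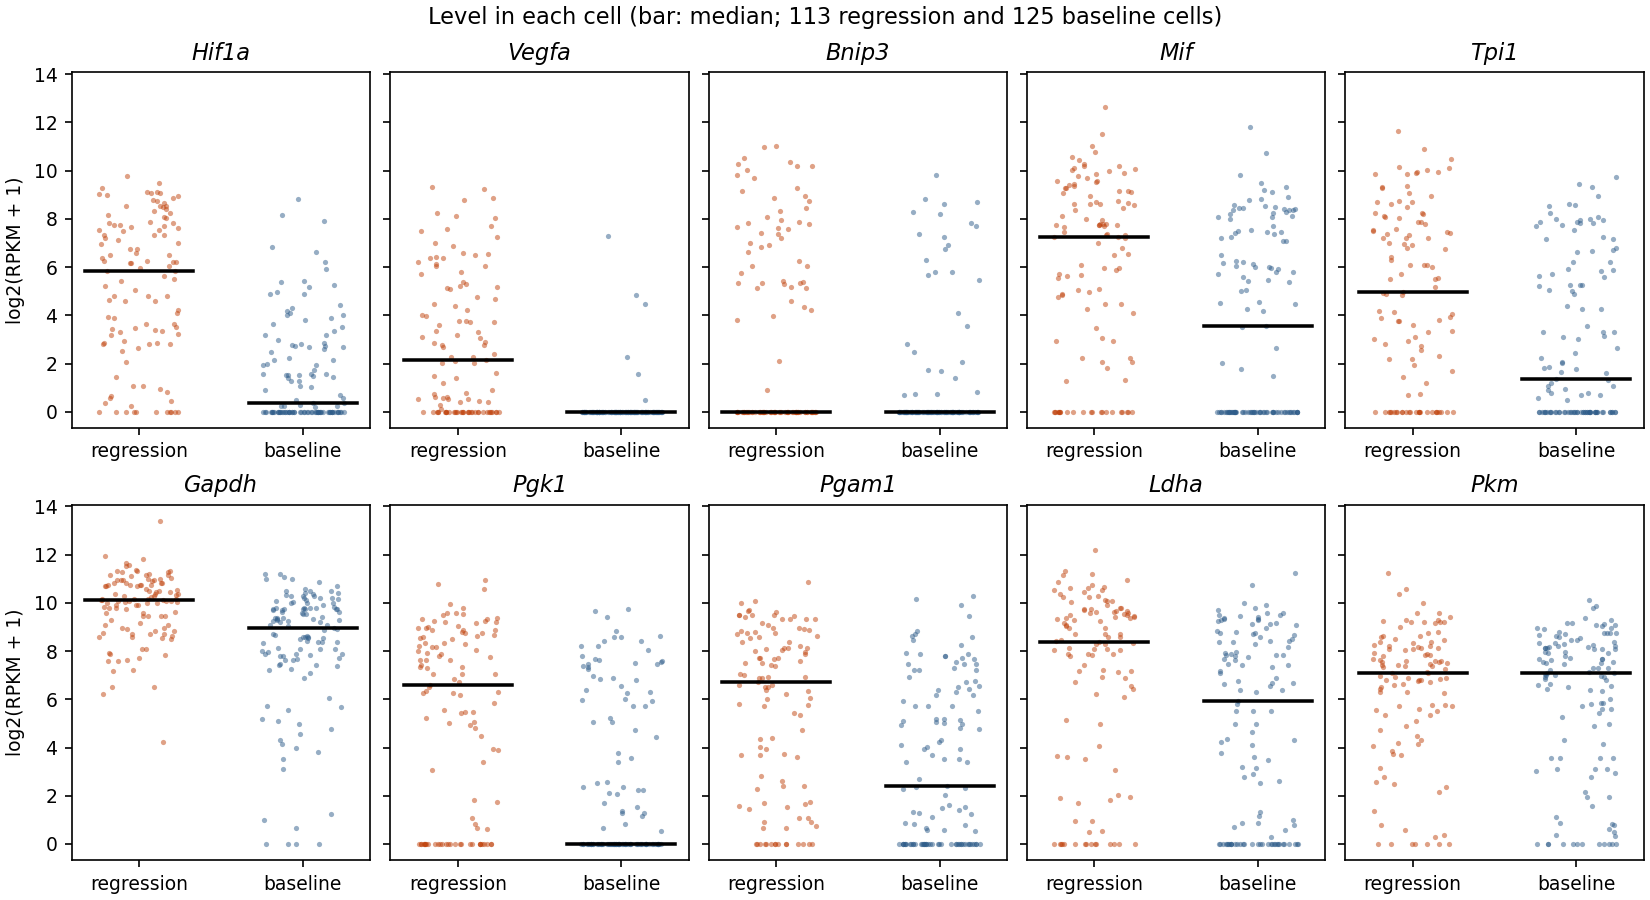
Level of 10 members in each cell, as log2(RPKM + 1), with regression cells in orange and baseline cells in blue; the bar is the median over cells. Most genes have cells at 0 in both groups, and the Pkm medians of 7.09 in regression and 7.08 at baseline nearly coincide.

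Along glycolysis, the steps did not differ alike. Tpi1, Gapdh, Pgk1 and Pgam1, in the middle of the pathway, had differences of 1.68 to 2.67, whereas the 4 steps before them and Eno1 and Pkm after them lay between -0.23 and 0.95. The place of enolase is uncertain: summed with its near-identical copy Eno1b, described below, it differed by 1.41. Slc2a1, the glucose transporter GLUT1, averaged 1.48 ± 2.36 in regression and 0.79 ± 1.85 at baseline, and was listed in 32.7% and 17.6% of cells. Of the hexokinases, which trap glucose as its phosphate, Hk2 was the most abundant per length, at 2.83 ± 3.09 in regression and 2.28 ± 2.88 at baseline. Hk1 (chromosome 10, 62268855 to 62379908, minus strand) had a mean of 0.37 ± 0.96 in regression and 0.54 ± 1.37 at baseline, with 13.3% and 14.4% of cells listing it. Its median cell was at 0 in both groups and its highest at 4.07 in regression and 6.22 at baseline. Hk3 had a mean of 0.71 in regression and 0.49 at baseline. Any of the 3 hexokinases was listed in 63.7% of regression and 64.8% of baseline cells. Gpi1, which converts glucose phosphate to fructose phosphate, was listed in 74.3% of regression and 74.4% of baseline cells, with means of 4.71 ± 3.42 and 4.18 ± 3.09.

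The phosphofructokinase isoforms, which catalyse the committed step, went opposite ways. Pfkl averaged 1.48 ± 2.39 in regression and 0.50 ± 1.60 at baseline. It was listed in 39 regression cells (34.5%, interval 25.8 to 44.0%) and 13 baseline cells (10.4%, interval 5.65 to 17.1%). Pfkp (chromosome 13, 6579768 to 6648777, minus strand) averaged 1.77 ± 2.71 in regression and 2.14 ± 2.80 at baseline, and was listed in 36.3% and 45.6% of cells. It ran in regression from 0 through a median of 0 to 9.29, and at baseline from 0 through 0.28 to 9.16. With both isoforms summed, the levels were 2.82 in regression and 2.48 at baseline, so the step as a whole differed by 0.34. The stretches qualify Pfkp: regression 1 to 20 stood at 2.70, 93 to 111 at 0.23 and 168 to 244 at 1.89, against 2.64 and 1.53 in baseline 21 to 92 and 112 to 167. Pfkfb3 and Pfkfb4, which make the activator of this enzyme, also split, at 0.86 and 0.80 in regression and 0.47 and 1.20 at baseline. Pfkfb4 (chromosome 9, 108991778 to 109032228, plus strand) was listed in 16.8% of regression and 26.4% of baseline cells, with a median of 0 in both groups and a highest cell of 7.92 in regression and 8.36 at baseline. When each regression stretch was set against each baseline stretch, it was lower in all 6 pairings, the 1 member of 31 to be so, where 16.4% of all genes were.

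Among the middle enzymes, Pgk1, phosphoglycerate kinase, which makes the first ATP of the pathway (chromosome X, 106187100 to 106203699, plus strand), ran in regression from 0 through a median of 6.58 to 10.94. At baseline it ran from 0 through a median of 0 to 9.73. It averaged 5.33 ± 3.77 in regression and 2.67 ± 3.34 at baseline, a difference of 2.67, and was listed in 71.7% and 46.4% of cells. Pgam1, phosphoglycerate mutase (chromosome 19, 41911923 to 41918660, plus strand), ran in regression from 0 through 6.74 to 10.87. At baseline it ran from 0 through 2.39 to 10.29, and the mean difference was 2.24. Tpi1, triose phosphate isomerase (chromosome 6, 124810586 to 124814296, minus strand), ran in regression from 0 through 4.95 to 11.66. At baseline it ran from 0 through 1.35 to 9.71, and the mean difference was 1.86. For each of these 3 enzymes the groups overlapped across most of their range, and the median cell was higher in regression.

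Gapdh, glyceraldehyde phosphate dehydrogenase and a common reference gene, also differed between the groups (chromosome 6, 125161715 to 125166467, minus strand). It averaged 9.84 ± 1.39 in regression, with a lowest cell at 4.24, a median of 10.11 and a highest cell at 13.41. At baseline it averaged 8.16 ± 2.60, with a lowest cell at 0, a median of 8.94 and a highest cell at 11.21. It was listed in 113 of 113 regression and 120 of 125 baseline cells, and the difference in mean level was 1.68. The regression stretches stood at 10.37, 9.74 and 9.72, against 8.42 and 7.83 in the baseline stretches. Aldoa, aldolase, averaged 7.94 ± 2.96 in regression and 6.99 ± 3.11 at baseline, and its difference of 0.95 was positive in 6 of 6 stretch pairings. Pkm, pyruvate kinase (chromosome 9, 59656368 to 59679375, plus strand), averaged 6.33 ± 2.79 in regression and 5.91 ± 3.09 at baseline. It ran in regression from 0 through a median of 7.09 to 11.22, and at baseline from 0 through 7.08 to 10.10. The table holds 1 row for Pkm, so its M1 and M2 forms cannot be told apart.

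Enolase depended on which copy was read. Eno1 (chromosome 4, 150236721 to 150248879, plus strand) was the only enzyme past phosphofructokinase with the lower mean in regression, at 5.03 ± 3.92 against 5.26 ± 3.55 at baseline. It ran in regression from 0 through a median of 5.91 to 10.97, and at baseline from 0 through 6.53 to 10.83. The difference of -0.23 became 0.86 without cells 168 to 244 and 0.41 in cells with at least 2000 genes. The table also holds Eno1b, a copy on another chromosome, whose coding sequence matches that of Eno1 at 1294 of 1302 bases (99.4%). Eno1b averaged 6.98 ± 2.26 in regression and 5.35 ± 2.92 at baseline, a difference of 1.63. Of the cells that listed either row, the 4 with Eno1 alone were all baseline cells, and Eno1b alone was listed in 33 regression and 16 baseline cells. The sources used here do not say how reads were divided between the rows, so each row alone is uncertain. With both rows summed, the level was 7.98 ± 2.35 in regression and 6.57 ± 3.29 at baseline, a difference of 1.41, positive in 6 of 6 stretch pairings against 4 of 6 for Eno1 alone. This sum was chosen after the values were seen. Other members also have near-identical copies in the annotation that have no row in the table: Gapdh has 70, of which 67 are pseudogenes, Mif and Bnip3 have 4 each, Pgk1 and Ldha 2 each, and Pgam1 and Bnip3l 1 each.

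The number of glycolytic steps listed per cell sums up the pathway. Counting 10 steps from hexokinase to pyruvate kinase, with any isoform among the members, the median cell listed 8 in regression and 7 at baseline. All 10 steps were listed in 26 of 113 regression and 11 of 125 baseline cells. The enolase step was counted from Eno1 only. The 33 regression and 16 baseline cells that listed Eno1b alone were thus counted without it.

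Past pyruvate, the lactate genes had higher means in regression. Ldha, which makes lactate (chromosome 7, 46841475 to 46855627, plus strand), ran in regression from 0 through a median of 8.36 to 12.18. At baseline it ran from 0 through 5.93 to 11.24. It averaged 6.93 ± 3.76 in regression and 4.93 ± 3.82 at baseline, a difference of 2.01, with 83.2% and 68.0% of cells listing it. Slc16a3, the transporter MCT4 that exports lactate, was listed in 40 regression cells (35.4%, interval 26.6 to 45.0%) and 15 baseline cells (12.0%, interval 6.87 to 19.0%). Pdk1, the kinase that shuts pyruvate out of mitochondrial oxidation, was listed in 21.2% of regression and 8.80% of baseline cells, at 4.01 and 4.39 in the cells that listed it. For Pdk1 the groups therefore differed in the share of cells and not upward in the level within them.

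Among mitophagy and stress genes, Bnip3 had the widest difference. Bnip3, a mitochondrial protein that marks the organelle for removal (chromosome 7, 138890836 to 138909519, minus strand), had a median of 0 in both groups and a highest cell of 11.03 in regression and 9.83 at baseline. It averaged 3.29 ± 3.91 in regression and 1.19 ± 2.59 at baseline, a difference of 2.11. It was listed in 51 regression cells (45.1%, interval 35.8 to 54.8%) and 25 baseline cells (20.0%, interval 13.4 to 28.1%). Its paralog Bnip3l averaged 3.47 ± 3.09 in regression and 2.88 ± 2.98 at baseline. Ndrg1, a stress-induced protein (chromosome 15, 66929318 to 66969640, minus strand), averaged 0.74 ± 1.89 in regression and 0.94 ± 2.15 at baseline, and was listed in 15.0% and 18.4% of cells. Its median cell was at 0 in both groups and its highest at 9.05 in regression and 9.03 at baseline. Ddit4, an inhibitor of the growth kinase mTORC1, was listed in 3 regression and 5 baseline cells. P4ha1, a subunit of collagen prolyl hydroxylase, averaged 2.27 ± 2.66 in regression and 1.14 ± 2.18 at baseline. Ero1l, which forms disulfide bonds in the endoplasmic reticulum (chromosome 14, 45283087 to 45318771, minus strand), averaged 1.52 ± 2.41 in regression and 0.38 ± 1.22 at baseline, and was listed in 33.6% and 10.4% of cells. Its median cell was at 0 in both groups and its highest at 8.12 in regression and 8.13 at baseline.

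The regression stretches were not alike. Over all 33 genes, the per-cell mean was 3.38 ± 1.04 in cells 1 to 20, 2.26 ± 0.74 in cells 93 to 111 and 3.02 ± 1.05 in cells 168 to 244. The baseline stretches stood close together, at 2.04 ± 0.65 in cells 21 to 92 and 2.02 ± 0.73 in cells 112 to 167. The median cell of these stretches listed 2669, 1892.5 and 2399 genes in regression and 2457 and 2515 at baseline, so cells 93 to 111 also had the fewest genes listed. For the glycolysis genes, cells 93 to 111 were level with baseline when all their cells were taken, at 2.84 ± 0.92 against 2.87 ± 0.91 and 2.76 ± 1.00. For the hypoxia response genes they lay above it, at 1.47 ± 0.77 against 0.90 ± 0.60 and 1.02 ± 0.57.

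**Figure D3:**
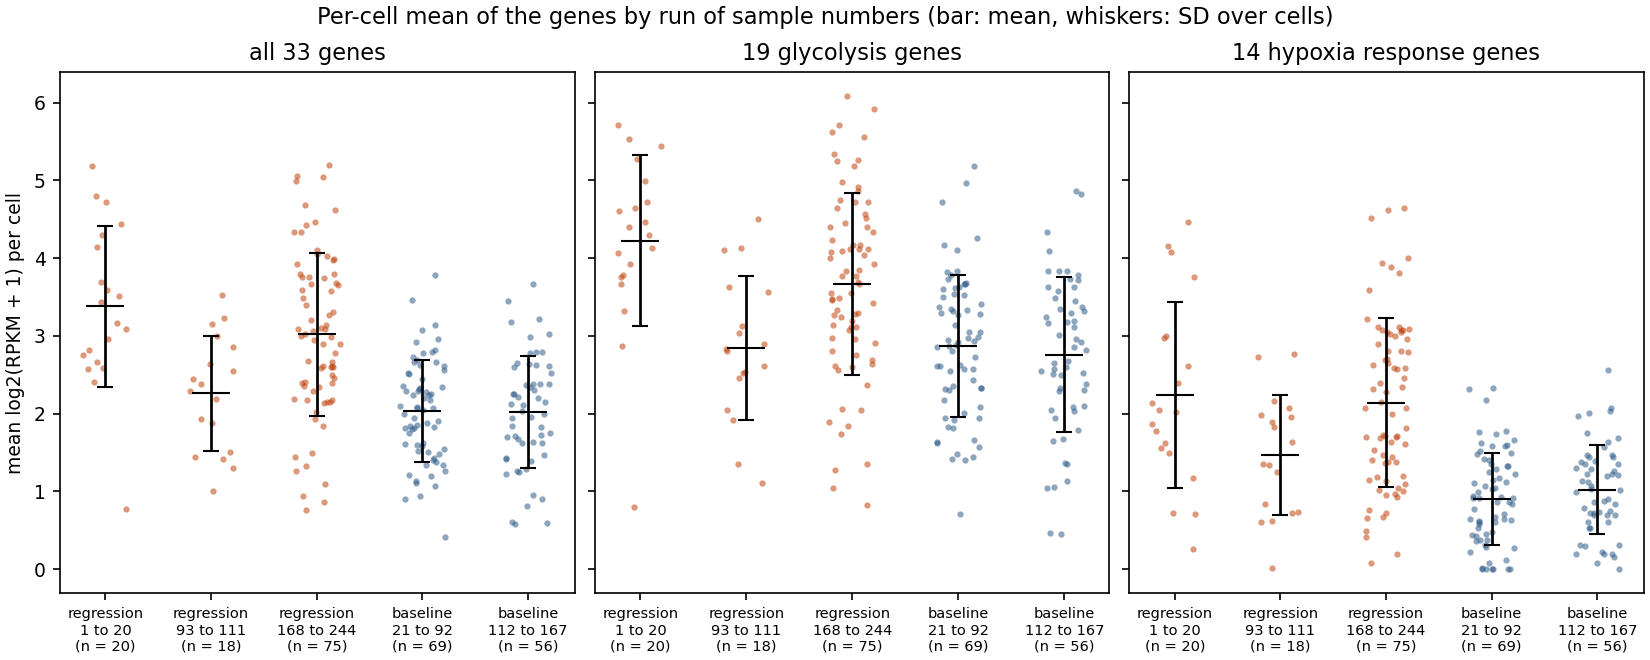
Mean log2(RPKM + 1) per cell of all 33 genes, of the 19 glycolysis genes and of the 14 hypoxia response genes, by run of sample numbers; points are cells, bars means and whiskers SD. In the middle panel regression cells 93 to 111 (2.84) stand level with both baseline runs (2.87 and 2.76).

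In cells 93 to 111, the members whose mean was at least 1 above the mean of all baseline cells were Hif1a, Vegfa and Gapdh, 3 of 31, where 3.13% of all genes were. Bnip3l and Pfkp were lower than that mean by at least 1, 2 of 31, where 9.21% of all genes were. In cells 1 to 20, 20 of 31 members were higher (9.22% of all genes) and 0 lower (5.51% of all genes). In cells 168 to 244, 11 of 31 were higher (2.63% of all genes) and 0 lower (3.06% of all genes). Ldha shows the contrast. It averaged 8.31, 4.94 and 7.05 in regression cells 1 to 20, 93 to 111 and 168 to 244, against 4.99 and 4.85 in the baseline stretches. Hif1a was as high in cells 93 to 111 (5.50) as in the other 2 regression stretches. In 6 of 6 stretch pairings, 13 of the 31 members had the higher mean in regression, as 9.56% of all genes did, among them Hif1a, Vegfa, Gapdh, Aldoa, Pgk1, Pfkl, Bnip3 and Mif. For Tpi1, Pgam1 and Ldha it was 5 of 6, with the lowest pairing at -0.14, -0.03 and -0.05.

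**Figure D4:**
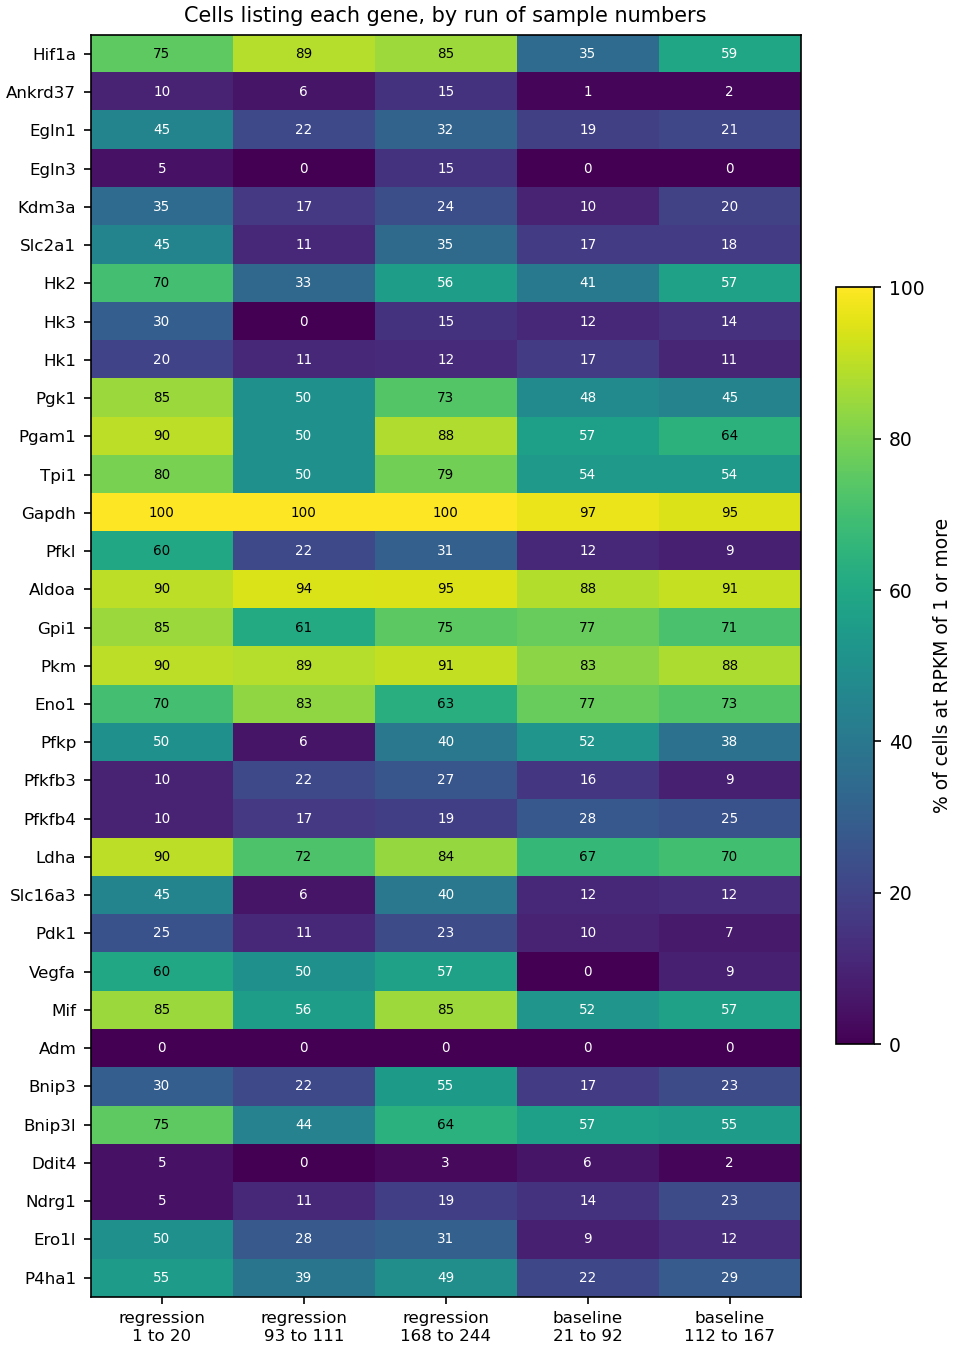
Share of cells, in percent, that list each gene at RPKM of 1 or more in each run of sample numbers, regression runs on the left. Vegfa was listed in 60.0%, 50.0% and 57.3% of regression cells and in 0% and 8.93% of baseline cells. Slc16a3 was listed in only 1 of 18 regression cells 93 to 111 (5.56%), beside 8 of 69 and 7 of 56 cells in the baseline runs.

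Genes listed per cell moved with the per-cell mean within each group, with a Spearman correlation of 0.54 over 113 regression cells and 0.67 over 125 baseline cells. The points share their libraries and depth, so these are descriptions. When cells were compared at a like number of genes listed, the difference was close to that over all cells. Among cells with 2000 to 3000 genes, the mean over the 33 genes was 2.95 ± 0.96 in 50 regression cells and 1.97 ± 0.50 in 63 baseline cells. Among cells with under 2000 genes it was 2.23 ± 0.85 in 32 regression cells and 1.43 ± 0.59 in 28 baseline cells. Among cells with over 3000 it was 3.74 ± 0.83 in 31 regression cells and 2.64 ± 0.55 in 34 baseline cells. The 8 cells of stretch 93 to 111 with 2000 to 3000 genes had a mean of 2.55 ± 0.87, above the 1.95 ± 0.51 and 2.00 ± 0.50 of the baseline stretches in that range. Their glycolysis mean was 3.27 ± 1.11, against 2.75 ± 0.82 and 2.72 ± 0.72.

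**Figure D5:**
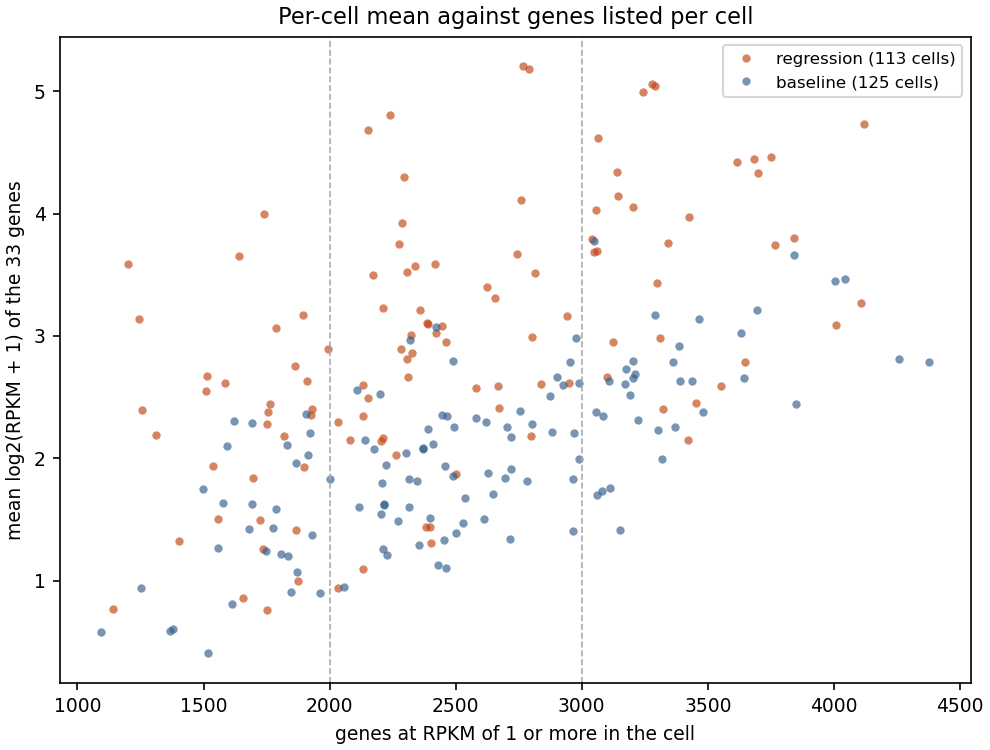
Per-cell mean log2(RPKM + 1) of the 33 genes against the number of genes listed in the cell, with regression cells in orange and baseline cells in blue; dashed lines mark 2000 and 3000 genes. Both groups climb with genes listed, and between the lines regression cells average 2.95 and baseline cells 1.97.

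Within groups, the glycolysis and hypoxia means of a cell were correlated, and the difference between the groups was not tested. Their Spearman correlation was 0.68 over 113 regression cells and 0.41 over 125 baseline cells. With genes listed per cell held fixed by partial correlation it was 0.61 and 0.11. These values too share each cell's library and depth. Single pairs were looser: Bnip3 with Pgk1 stood at 0.40 in regression and 0.04 at baseline, and Hif1a with Vegfa at 0.35 and 0.22. The baseline value for Vegfa rests on the 5 of 125 cells that listed it and cannot be read. Hif1a with Pgk1 stood at 0.09 and 0.14, too weak in sparse data to read. By stretch, the correlation of the glycolysis and hypoxia means was 0.75, 0.45 and 0.69 in regression cells 1 to 20, 93 to 111 and 168 to 244, and 0.32 and 0.52 in baseline cells 21 to 92 and 112 to 167, with 18 to 75 cells each. With genes listed held fixed, it was 0.76, 0.47 and 0.62 in these regression stretches and 0.07 and 0.20 in these baseline stretches.

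Markers of other myeloid cells also moved with the groups. Classical monocyte markers had at least 3 of 6 listed in 44 regression cells (38.9%) and 26 baseline cells (20.8%), with summed RPKM from 0 to 15524 in regression and 0 to 3444 at baseline. Neutrophil markers had at least 3 of 8 listed in 15 regression cells (13.3%) and 5 baseline cells (4.00%), with summed RPKM from 0 to 29863 and 0 to 17711. Of these 8, the defining Ly6g and Camp were at 0 in every cell of both groups. The part of these markers in the glycolysis and hypoxia values was not tested. By stretch, the share of cells with at least 3 monocyte markers was 35.0%, 44.4% and 38.7% in regression cells 1 to 20, 93 to 111 and 168 to 244, and 14.5% and 28.6% in baseline cells 21 to 92 and 112 to 167. For neutrophil markers it was 0%, 33.3% and 12.0% in these regression stretches, and 2.90% and 5.36% in the baseline stretches.

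Beyond the members, a wider list of 82 pathway genes was read the same way, and 55 of them passed the 5% filter. Of these 55, 6 were higher in regression by at least 1 and 2 lower, beside 2.43% and 3.17% of all genes, and the median difference was 0.10. The 3 with the highest difference were Hilpda, which sits on lipid droplets and is a known hypoxia target (4.32 ± 4.49 in regression and 0.76 ± 2.19 at baseline), Pygl and Ugp2. Pygl, which releases glucose phosphate from glycogen, averaged 2.28 ± 2.81 in regression and 0.73 ± 1.92 at baseline. Ugp2, which makes the glucose donor for glycogen, averaged 2.60 ± 2.90 and 1.12 ± 2.26. The 3 with the lowest difference were Mpc1, a subunit of the carrier that takes pyruvate into mitochondria (3.05 ± 3.63 in regression and 4.74 ± 3.92 at baseline), the histone demethylase Kdm6b (3.51 ± 2.32 and 4.80 ± 2.37) and the chemokine receptor Cxcr4 (3.42 ± 2.72 and 4.19 ± 2.41).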

How the data were processed

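Macrophages sorted from aortic arches were captured singly on the C1 system, reverse transcribed with SMARTer chemistry and made into Nextera XT libraries, per the labels' protocols, whose wording names islet cells where the sample labels name macrophages. The authors deposited RPKM values per gene and cell; the submitters' processing notes name CASAVA 1.8.2, FastQC and the mm10 build, and no source used here names an aligner, an annotation or an RPKM program. Without molecular identifiers, values include amplification noise.

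Columns were matched to samples by the number in the title. Libraries correlating above 0.9 were averaged, and cells had to list 1000 genes. A difference is the mean log2(RPKM + 1) over regression cells minus that over baseline cells; the pseudocount understates changes of low genes. As RPKM values are no counts and each group is 1 sample, no test was made. Shares carry exact (Clopper-Pearson) 95% intervals, and a count of 0 also has the share that 3 cells would make. Doublets were not called. Depth estimates used 3974 genes that have 1 annotated transcript, and is given where 2 gene sets agreed within 10%. A near-identical copy matches at least 80% of a coding sequence at 95% identity or more. Genes given in full are the 10 members with the widest differences, those measured members against the general direction, Hif1a, Gapdh, Eno1 and Pkm; of the wider list the 3 highest and 3 lowest are named. Members and lists were chosen with earlier results of these data known. Alternatives changed the pseudocount, scaling, filters on cells and genes, averaging, summary over cells and the stretches included. Only the difference of group means was run on simulated data, made by putting known changes into resampled baseline cells. The other values were not tested in this way. Python 3.11.15, pandas 2.3.3 and scipy 1.17.1 were used.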

Additional observations from a re-analysis of the deposited data

How the results depend on the processing

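The difference of the per-cell mean over all 33 genes stayed positive in each of the alternative settings tried, from 0.55 with a pseudocount of 10 to 1.33 with one of 0.1, and was 0.82 to 1.07 with any 1 stretch of sample numbers left out. The pseudocount of 10 gave 0.53 for glycolysis genes, 0.59 for hypoxia genes and a median over measured members of 0.34. The pseudocount of 0.1 gave 1.66 for hypoxia genes, a median of 1.10 and 17 members higher by at least 1, in place of 11. Taking the log2 ratio of the group means of RPKM, a scale set mainly by cells with high values and with no value for Egln3 and Adm, gave 1.67 for hypoxia genes, a median of 1.09, 18 members higher by at least 1 and 1 lower (Hk1, -1.61). With medians over cells in place of means, the median over measured members was 0, because many of them are at 0 in the median cell of both groups. Of the 11 members higher by at least 1, 8 remained so in all 14 settings run on each of them; the exceptions were Bnip3 and Ero1l, at 0 under medians over cells, and P4ha1, down to 0.49. Of the other 22, 16 changed sign or came to 0 in at least 1 setting, among them Eno1, which ran from -0.62 (medians over cells) to 0.86 (without cells 168 to 244). No paired analysis was possible because the groups share no replicate number. Depth and the 1 sample per group limit all values: a gene at 0 in a cell may have been missed.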

Other observations

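Genes of neighbouring sugar pathways, grouped after their values were seen, gave further values. In glycogen metabolism, besides Pygl and Ugp2, the branching enzyme Gbe1 averaged 0.56 ± 1.61 in regression and 0.17 ± 0.84 at baseline, and phosphoglucomutase Pgm1 1.01 ± 2.12 and 0.42 ± 1.29. Glycogen synthase Gys1 stood at 0.25 and 0.12. In the pentose phosphate pathway, Pgls averaged 2.12 ± 2.97 in regression and 1.34 ± 2.45 at baseline and Pgd 4.24 ± 2.62 and 3.60 ± 2.41. G6pdx, the entry enzyme, stood at 1.41 and 1.31, Tkt at 0.87 and 1.14 and Taldo1 at 4.17 and 4.78. The subunits of the mitochondrial pyruvate carrier went opposite ways, with Mpc2 at 2.79 ± 3.39 in regression and 1.86 ± 2.70 at baseline, while Mpc1 had the lower mean in regression, as given above. Higd1a, a mitochondrial protein known as a hypoxia target, stood at 2.63 and 2.66. Arnt, which encodes the partner subunit of Hif1a, averaged 1.06 ± 1.83 in regression and 0.55 ± 1.35 at baseline. The related subunit Epas1 was listed in under 5% of the cells of each group.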
